A study of Homo sapiens with 47 samples.

Results

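The miRNAs described here are 9 mature products of 2 related miRNA clusters, each carried by a long noncoding host gene. They were chosen by name, from the known gene content of the clusters and not from a measured value, though with earlier results of these data known. They make up 9 of the 1006 mature miRNAs in the count table. MIR100HG on chromosome 11 holds the genes of hsa-miR-100, hsa-let-7a-2 and hsa-miR-125b-1, and MIR99AHG on chromosome 21 holds those of hsa-miR-99a, hsa-let-7c and hsa-miR-125b-2. Small RNA was sequenced in 47 libraries from 2 human prostate cancer cell lines, 24 from PC-3 and 23 from 22Rv1. The labels give a bone metastasis as the origin of PC-3, and a primary tumour, grown as a subline of the CWR22R xenograft, as that of 22Rv1. Cells of each line were kept for 24 h in hypoxia at 5, 2, 1, 0.5, 0.2 or 0% O2, and each O2 level had its own control in normoxia (95% air). All cells grew in RPMI-1640 medium with serum, without any other agent or genetic change named in the labels. There were 2 libraries in every group but one, the 0.2% control of 22Rv1, with 1.

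miRNAs are cut from hairpin precursors, and either arm of a hairpin can be loaded into Argonaute, where bases 2 to 8 of the guide, the seed, pair with target mRNAs. The MIR100HG and MIR99AHG clusters are paralogues with the same order of genes, a miR-99/100 gene, a let-7 gene and a miR-125 gene, and a further paralogous cluster lies on chromosome 19. The let-7 family represses growth-promoting mRNAs such as those of RAS and HMGA2, miR-99/100 family members are known to target MTOR, and miR-125b is known to target BAK1 and is widely studied in prostate cancer.

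The mature sequences of the 9 members are shown because their differences decide which hairpin, and so which cluster, a read can be assigned to. All 9 of 9 matched a RefSeq entry (GRCh38.p14), and bases 2 to 8 are in capitals. The first 4 come from MIR100HG alone, hsa-miR-125b-5p comes from both clusters, and the last 4 come from MIR99AHG alone.
hsa-miR-100-5p: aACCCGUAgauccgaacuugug
hsa-miR-100-3p: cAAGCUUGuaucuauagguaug
hsa-let-7a-2-3p: cUGUACAGccuccuagcuuucc
hsa-miR-125b-1-3p: aCGGGUUAggcucuugggagcu
hsa-miR-125b-5p: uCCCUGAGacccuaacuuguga
hsa-miR-125b-2-3p: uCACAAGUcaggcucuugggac
hsa-miR-99a-5p: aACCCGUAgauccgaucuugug
hsa-let-7c-5p: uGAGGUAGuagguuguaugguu
hsa-let-7c-3p: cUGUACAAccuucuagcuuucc
Counted from 1 at the 5′ end, hsa-miR-100-5p and hsa-miR-99a-5p differ only by A16U, so they share the seed ACCCGUA. Between the let-7 passenger strands, hsa-let-7a-2-3p and hsa-let-7c-3p, the differences are G8A and C12U, and the first of these lies in the seed. hsa-let-7c-5p differs from hsa-let-7a-5p, the most abundant let-7 of both lines, only by A19G.
hsa-let-7a-5p: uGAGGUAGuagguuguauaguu
hsa-miR-99b-5p: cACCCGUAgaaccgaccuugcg
The chromosome 19 paralogue hsa-miR-99b-5p has the same seed as hsa-miR-100-5p. hsa-let-7a-5p itself is cut from several let-7a genes and so is not a member.

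The hairpin of MIR125B1 shows why the 3p strands separate the miR-125b genes. With its mature arms in capitals, the RefSeq hairpin reads as follows.
MIR125B1: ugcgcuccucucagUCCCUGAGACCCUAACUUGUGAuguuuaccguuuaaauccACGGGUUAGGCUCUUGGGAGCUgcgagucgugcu
Its first arm is the hsa-miR-125b-5p that MIR125B2 also makes, and its second arm is hsa-miR-125b-1-3p, which only MIR125B1 makes. The count table has a single entry for hsa-miR-125b-5p and names hsa-mir-125b-2 alone as its precursor. Since both genes make that sequence, the entry is treated here as shared and was not divided between them.

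From the first to the last mature sequence, the MIR100HG members span chr11:122099769-122152296 on the minus strand (52528 bp, GRCh38.p14), and the MIR99AHG members span chr21:16539101-16590311 on the plus strand (51211 bp). In the GENCODE annotation of that build, MIR100 and MIRLET7A2 lie in an intron of 8 of 39 MIR100HG transcripts, and MIR125B1 in an intron of 23 of them. MIR99A and MIRLET7C are intronic in 13 of 21 MIR99AHG transcripts, and MIR125B2 in 14. All 6 genes lie on the strand of their host, and 0 of them overlap a host exon.

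Library totals ran from 1742290 to 4327382 counts in PC-3 and from 960421 to 3181344 in 22Rv1. A count of 3, used as a floor, stood for 0.726 to 1.77 normalised counts (CPM, counts scaled to 1e6 per library) in a PC-3 library and 0.744 to 4.47 in a 22Rv1 library. hsa-miR-210-3p, a miRNA known to be induced by HIF, was higher in hypoxia in 12 of 12 PC-3 and 11 of 11 22Rv1 pairs. In both PC-3 replicate 1 libraries of the 5% level, the stromal marker list (7 of its 10 miRNAs in the table) summed to 1204 CPM in hypoxia and 1274 CPM in normoxia, against 19.2 to 40.5 CPM in the other PC-3 libraries. A single miRNA, hsa-miR-143-3p, made 1161 CPM of that hypoxia sum and 1247 CPM of the normoxia sum. Among 22Rv1 libraries, replicate 1 of the 5% level, its control and replicate 1 of the 0.5% level stood apart on the first principal component, and the totals of that 5% pair, 1035470 and 960421 counts, were the lowest of the line. Results that change without these libraries are given with that value. Treatments were done in duplicate per the labels, which do not say if the duplicates were separate cultures. The spread that each p-value is set against is that of these samples and may be technical.

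In normoxia, the products of MIR100HG alone were abundant in PC-3 and close to absent from 22Rv1, while each member made from MIR99AHG alone overlapped between the lines. The 4 miRNAs made only from MIR100HG together took 3.36% ± 0.326 (SD, n = 12) of PC-3 counts, and hsa-miR-100-5p, the guide strand of MIR100, was the sixth most abundant miRNA of that line by total count. The same 4 were at or near 0 in 22Rv1, with 22 normoxia counts over 11 libraries. The 4 members made from MIR99AHG alone together took 0.0288% ± 0.00268 of counts in PC-3 (0.0256% to 0.0339%) and 0.0539% ± 0.00831 in 22Rv1 (0.0436% to 0.0664%). These are shares of library totals, and scaling by totals alone moved the median log2 difference of all miRNAs between the lines by -0.45. With scaling by trimmed means, the largest of the 4, hsa-let-7c-5p, overlapped, at 205 to 318 CPM in PC-3 and 245 to 492 CPM in 22Rv1.

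**Figure D1:**
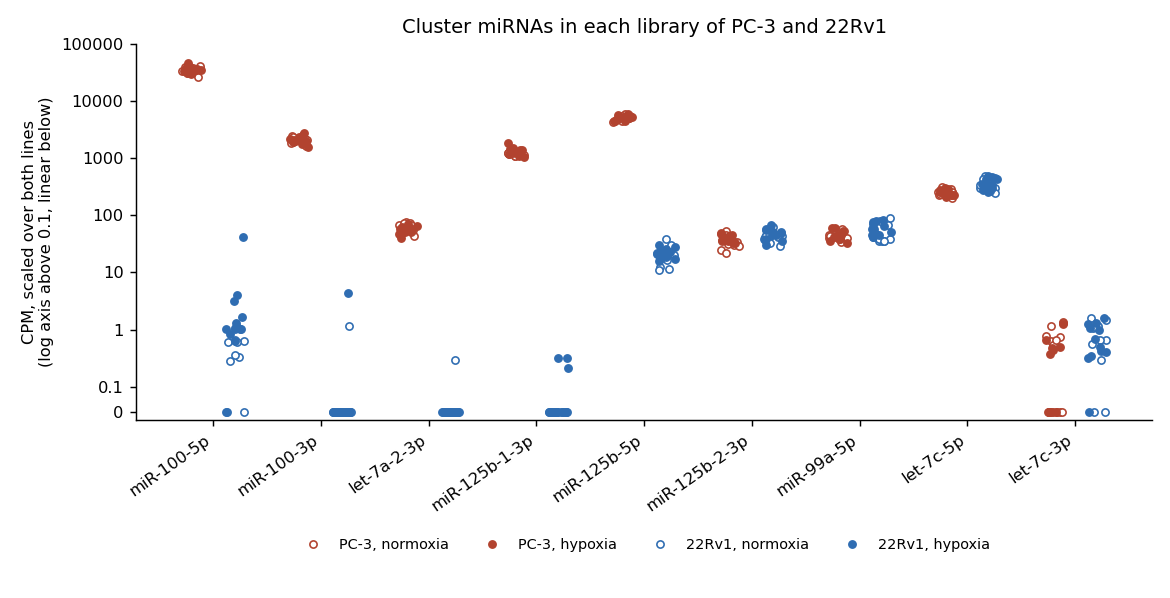
CPM of the 9 miRNAs in each of the 47 libraries, scaled jointly over both lines (axis linear near 0 and logarithmic above); points are single libraries, separated by line and condition. The 4 products of MIR100HG alone and hsa-miR-125b-5p lie far apart between PC-3 and 22Rv1, while the members made from MIR99AHG alone overlap.

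Levels that compare the lines are CPM scaled by trimmed means (TMM) over all 47 libraries. hsa-miR-100-5p ran from 26137 to 40835 CPM in the 12 PC-3 normoxia libraries (mean 35128 ± 4016 SD) and from 0 to 1.11 CPM in the 11 from 22Rv1, where its counts were 0 in 2 libraries and at most 4 in any. The groups did not overlap. From pooled counts, 1103713 against 18, the level was 63052-fold higher in PC-3, with an exact 95% counting interval of 39895 to 106388. Such intervals cover counting error only, since reads without molecular identifiers are not independent molecules.

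The passenger strand hsa-miR-100-3p ran from 1662 to 2572 CPM in PC-3 (mean 2097 ± 260 SD, n = 12). Its 3 normoxia counts in 22Rv1 all fell in replicate 2 of the 2% control set, which gave a ratio of 22848 (counting interval 7818 to 110795). hsa-let-7a-2-3p, the passenger strand of MIRLET7A2, was much lower, at 63.4 ± 9.26 CPM (SD, n = 12) in PC-3, and had 1 count in 22Rv1 normoxia and 0 in hypoxia. The normoxia ratio of that miRNA was 2076 with an interval of 372 to 82042, which the single count leaves very wide. hsa-miR-125b-1-3p stood at 1234 ± 108 CPM (SD, n = 12) in PC-3 and at 0 in all 11 22Rv1 normoxia libraries, and was at least 13379-fold higher in PC-3 with 22Rv1 at the floor of 3 counts over the group. So all 4 strands that mark the chromosome 11 cluster were read in every PC-3 library, at levels that differed by arm and gene.

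hsa-miR-125b-5p, the strand shared by both clusters, ran from 4279 to 5902 CPM in PC-3 normoxia (mean 5037 ± 460 SD, n = 12) and from 11.0 to 39.2 CPM in 22Rv1 (mean 20.4 ± 8.27 SD, n = 11). The groups did not overlap, and the pooled ratio was 267 (counting interval 246 to 289). Each 22Rv1 library held 24 to 132 counts of it, so unlike the MIR100HG strands it was measured in every library of both lines.

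The MIR99AHG products had another order. hsa-let-7c-5p, the guide of MIRLET7C, ran from 205 to 318 CPM in the 12 PC-3 normoxia libraries (median 255) and from 245 to 492 CPM in the 11 from 22Rv1 (median 334). hsa-miR-125b-2-3p, which marks MIR125B2, ran from 22.1 to 52.5 CPM in PC-3 (median 33.3) and from 29.1 to 61.3 CPM in 22Rv1 (median 43.2). hsa-miR-99a-5p, the guide of MIR99A, ran from 34.8 to 57.7 CPM in PC-3 (median 40.3) and from 35.3 to 89.9 CPM in 22Rv1 (median 38.9). The lines overlapped in all 3, and the 22Rv1 libraries were spread more widely for hsa-let-7c-5p and hsa-miR-99a-5p. hsa-let-7c-3p, the passenger of MIRLET7C, had 19 counts over the 12 PC-3 normoxia libraries and 26 over the 11 of 22Rv1, below the level needed for a test (5 CPM in at least 2 libraries). The count table also holds hsa-miR-99a-3p, the other strand of MIR99A, which is not a member. With 35 normoxia counts in PC-3 and 60 in 22Rv1 it was likewise too low to test.

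The normoxia libraries were compared with edgeR's quasi-likelihood test and Benjamini-Hochberg adjustment over 613 miRNAs. The 4 strands made only from MIR100HG entered that test through PC-3 alone, the line where they were high, so their calls are not used and their counts above describe them. Of the 4 members measured in both lines 3 were called, 1 higher in PC-3 and 2 lower, while 86.0% of all 613 miRNAs were called with a median log2 difference (PC-3 minus 22Rv1) of -0.15. Among these members, hsa-miR-125b-5p differed by a log2 of 8.03 (SE 0.18, adjusted p = 6.16e-32, edgeR), hsa-let-7c-5p by -0.49 (SE 0.094, adjusted p = 1.20e-05) and hsa-miR-125b-2-3p by -0.33 (SE 0.12, adjusted p = 0.0133). The edgeR difference of hsa-miR-99a-5p, -0.14 (SE 0.14), had an adjusted p of 0.350 and was not called. It was called when libraries were scaled by their totals alone (log2 -0.58, adjusted p = 3.86e-05, edgeR), which moved the median of all miRNAs by -0.45 to -0.60, and without replicate 2 of the 22Rv1 5% control set (-0.28, adjusted p = 0.0419, edgeR). Cell type marker lists differed between the lines as well. In normoxia the epithelial list summed to 8045 to 9815 CPM in PC-3 and 29079 to 68230 CPM in 22Rv1. The blood list summed to 250 to 346 and 1472 to 2858 CPM, and the luminal or neuroendocrine list to 141 to 575 and 8733 to 15661 CPM. Medians of the stromal (24.2 and 201 CPM), neuronal (339 and 625 CPM) and liver or serum lists (3.32 and 5.65 CPM) were also higher in 22Rv1, with overlapping ranges. The part of these lists in the differences was not tested.

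Within each line, shares between strands described how the clusters were represented, with counts of mature miRNAs of like length not divided by length. In PC-3 normoxia, hsa-miR-100-3p counts were 6.01% ± 0.745 (SD, n = 12) of hsa-miR-100-5p counts, and hsa-miR-125b-1-3p counts were 24.6% ± 2.60 of hsa-miR-125b-5p counts. The MIR125B2 strand hsa-miR-125b-2-3p made only 0.689% ± 0.172 of hsa-miR-125b-5p and 2.82% ± 0.768 of hsa-miR-125b-1-3p, so nearly all 3p-strand counts of the miR-125b pair came from the chromosome 11 gene. In 22Rv1 the order was turned, with hsa-miR-125b-2-3p at 233% ± 55.8 (SD, n = 11) of hsa-miR-125b-5p and hsa-miR-125b-1-3p at 0. The log2 ratio of hsa-miR-125b-2-3p to hsa-miR-125b-5p differed by -8.39, PC-3 minus 22Rv1 (two-sided permutation test, p = 2e-05, the smallest that 100000 resamples can give; adjusted over 3 ratios, 3e-05). PC-3 values of 0.448% to 0.978% and 22Rv1 values of 152% to 352% did not overlap.

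The other ratios of MIR99AHG members differed less. hsa-let-7c-5p counts were 606% ± 118 of hsa-miR-99a-5p counts in PC-3 and 771% ± 147 in 22Rv1, a log2 difference of -0.35 (permutation test, adjusted p = 0.00952), with overlapping ranges. Against its near copy hsa-let-7a-5p, hsa-let-7c-5p stood at 0.299% ± 0.0226 in PC-3 and 0.424% ± 0.0524 in 22Rv1, and here the ranges of 0.257% to 0.334% and 0.348% to 0.513% did not overlap (log2 difference -0.50, permutation test, adjusted p = 3e-05). hsa-miR-99a-5p counts in PC-3 were 0.122% ± 0.0203 of those of hsa-miR-100-5p, from which it differs by 1 base, with a range of 0.0990% to 0.176%. How the counting treated mismatched bases is not given in the sources used here, and the share of these low counts that came from reads of the near copy was not tested. In 22Rv1, where hsa-miR-100-5p was close to 0, hsa-miR-99a-5p had 71 to 244 counts in each normoxia library.

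**Figure D2:**
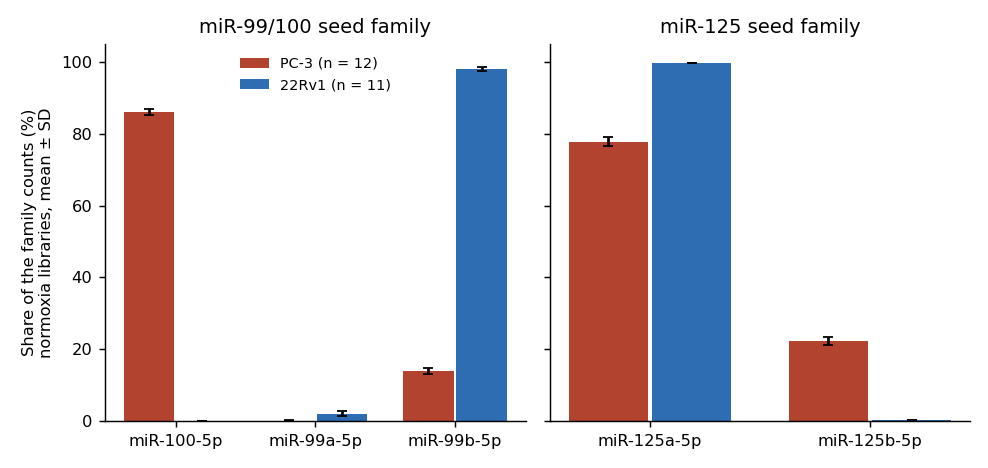
Share (percent) of the miR-99/100 and miR-125 guide counts that each member of the seed family took in normoxia; bars are means over 12 PC-3 and 11 22Rv1 libraries and error bars are SD. hsa-miR-100-5p takes 86.0% of its family in PC-3 and hsa-miR-99b-5p 97.9% in 22Rv1.

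The guides were next set among all miRNAs with their seed. In PC-3 normoxia, hsa-miR-100-5p made up 86.0% ± 0.768 (SD, n = 12) of the 3 guides with the seed ACCCGUA, hsa-miR-99b-5p made up 13.8% ± 0.770 and hsa-miR-99a-5p 0.105% ± 0.0175. In 22Rv1 the same shares were 0.0240% ± 0.0169, 97.9% ± 0.578 and 2.05% ± 0.578 (SD, n = 11). The family summed to 40820 ± 4625 CPM in PC-3 and 2452 ± 840 CPM in 22Rv1, and the ranges did not overlap. For the seed CCCUGAG, hsa-miR-125b-5p made up 22.3% ± 1.23 in PC-3 and 0.281% ± 0.0932 in 22Rv1, the rest being hsa-miR-125a-5p of the chromosome 19 cluster. That family summed to 22643 ± 1767 CPM in PC-3 and 7122 ± 685 CPM in 22Rv1. In the let-7 family of 9 entries, which summed to 145007 CPM in PC-3 and 143398 CPM in 22Rv1, hsa-let-7c-5p was a minor part, 0.174% ± 0.0125 in PC-3 and 0.252% ± 0.0310 in 22Rv1. In hypoxia hsa-miR-100-5p held 86.0% ± 0.607 of its family in PC-3 (SD, n = 12) and 0.151% ± 0.341 in 22Rv1 (SD, n = 12), where single libraries ran from 0 to 1.23%. For hsa-miR-125b-5p the hypoxia shares were 18.5% to 23.7% in PC-3 (mean 21.6%) and 0.282% ± 0.0543 in 22Rv1, and hsa-miR-99a-5p held 2.32% ± 0.436 in 22Rv1.

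The next comparison asked whether hypoxia changed the members in either line. Levels within a line are CPM scaled by TMM over that line alone, so they differ somewhat from those above. In PC-3, 0 of the 8 tested members passed edgeR's quasi-likelihood test of the mean effect over the 6 O2 levels (Benjamini-Hochberg adjusted p under 0.05), 1 had an unadjusted p under 0.05 and 0 passed in DESeq2. Of all 463 miRNAs tested in PC-3, 11.0% were called. The median log2 difference (hypoxia minus normoxia) was 0.05 over the members and -0.00 over all tested. With each hypoxia library paired with its control of the same number, 0 of the 8 members were called again, beside 23.5% of all miRNAs.

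**Figure D3:**
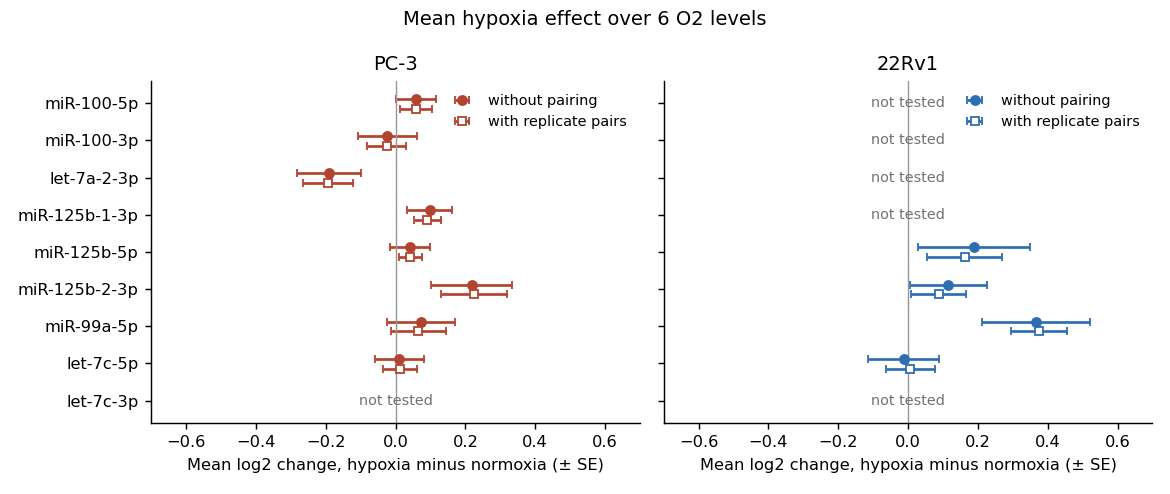
Mean log2 difference, hypoxia minus normoxia, of each tested member in PC-3 and 22Rv1, fitted with and without the pairs; points are estimates and bars are standard errors. Most values lie near 0, and hsa-miR-99a-5p in 22Rv1 lies at 0.37 without the pairs and 0.38 with them.

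hsa-miR-100-5p ranged from 22443 to 34909 CPM in PC-3 normoxia (median 30000) and from 26678 to 40674 CPM in hypoxia (median 30972), and the groups overlapped. Its mean log2 difference was 0.06 (SE 0.057, adjusted p = 0.590, edgeR), and it was higher in 7 of 12 pairs. hsa-miR-125b-5p ranged from 3674 to 5175 CPM (median 4423) in normoxia and from 3792 to 5104 CPM (median 4470) in hypoxia, a difference of 0.04 (adjusted p = 0.746, edgeR). These are the most abundant members, with at least 6800 counts in each PC-3 library.

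Among the passenger strands, hsa-let-7a-2-3p had the lowest of the unadjusted p-values among the PC-3 members, with 37.9 to 66.1 CPM in normoxia (median 55.8) and 34.8 to 61.1 CPM in hypoxia (median 47.0). The log2 difference was -0.19 (SE 0.092, adjusted p = 0.197, edgeR), or -0.19 with an adjusted p of 0.0512 in the paired edgeR fit, and 3 of 12 pairs were higher in hypoxia. hsa-miR-125b-2-3p stood at 18.7 to 45.9 CPM in normoxia (median 28.8) and 28.0 to 43.4 CPM in hypoxia (median 33.6), a log2 difference of 0.22 (SE 0.116, adjusted p = 0.244, edgeR). hsa-miR-125b-1-3p stood at 919 to 1216 CPM in normoxia (median 1056) and 926 to 1579 CPM in hypoxia (median 1098), a log2 difference of 0.10 (adjusted p = 0.389, edgeR). All of these overlapped between the conditions. For hsa-miR-100-3p, hsa-miR-99a-5p and hsa-let-7c-5p the log2 differences were -0.02, 0.07 and 0.01, with adjusted p of 0.933, 0.738 and 0.958 (edgeR).

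**Figure D4:**
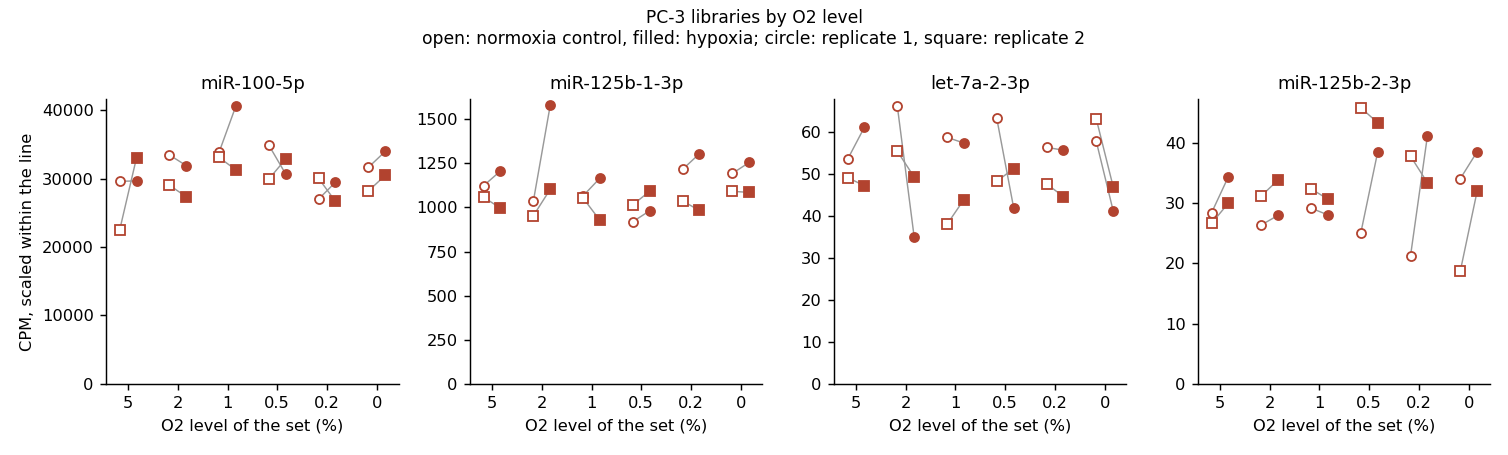
CPM (scaled within PC-3) of hsa-miR-100-5p, hsa-miR-125b-1-3p, hsa-let-7a-2-3p and hsa-miR-125b-2-3p at each O2 level (percent), with normoxia and hypoxia libraries of the same number joined. hsa-miR-125b-1-3p at 2% O2 is higher in hypoxia in both pairs, and hsa-let-7a-2-3p there is lower in both.

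At single O2 levels in PC-3, 0 calls were made for the 8 members over 6 levels (edgeR), beside 1.08% of all miRNA tests, with 2 at an unadjusted p under 0.05 and 0 in DESeq2. The pairs brought 1 call among the members, beside 4.90% of all tests. It was hsa-miR-125b-1-3p at 2% O2, at 1579 and 1103 CPM in hypoxia against 1034 and 952 CPM in the controls of the same numbers. Its log2 difference was 0.43 (SE 0.16, adjusted p = 0.216, edgeR) without the pairs and 0.41 (SE 0.097, adjusted p = 0.00826, edgeR) with them. At the same level hsa-let-7a-2-3p, from the same host gene, stood at 34.8 and 49.2 CPM in hypoxia and 66.1 and 55.3 CPM in the controls, a log2 difference of -0.52 that was not called. The differences of these 2 members had opposite signs.

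In 22Rv1, 4 members had enough counts for a test of hypoxia, all of them products of MIR99AHG or shared with it. Of these 4, 0 passed edgeR's quasi-likelihood test of the mean effect, 1 had an unadjusted p under 0.05 and 0 passed in DESeq2, while 13.6% of all 552 miRNAs tested were called. The median log2 difference was 0.15 over these members and 0.01 over all tested. With the pairs as a term, 1 member was called, hsa-miR-99a-5p, beside 29.7% of all miRNAs.

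hsa-miR-99a-5p ranged from 39.7 to 106 CPM in the 11 normoxia libraries (median 44.6) and from 52.9 to 97.0 CPM in the 12 hypoxia libraries (median 66.6). The groups overlapped, since the highest 3 normoxia libraries lay above the hypoxia median. The log2 difference was 0.37 (SE 0.155, unadjusted p = 0.0298, adjusted p = 0.137, edgeR) without the pairs and 0.38 (SE 0.081, adjusted p = 0.00105, edgeR) with them, and 8 of 11 pairs were higher in hypoxia. Without replicate 1 of the 5% control set it was called unpaired as well, at 0.47 (adjusted p = 0.0193, edgeR). Without the 3 libraries that stood apart it was 0.37 (adjusted p = 0.0666, edgeR).

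**Figure D5:**
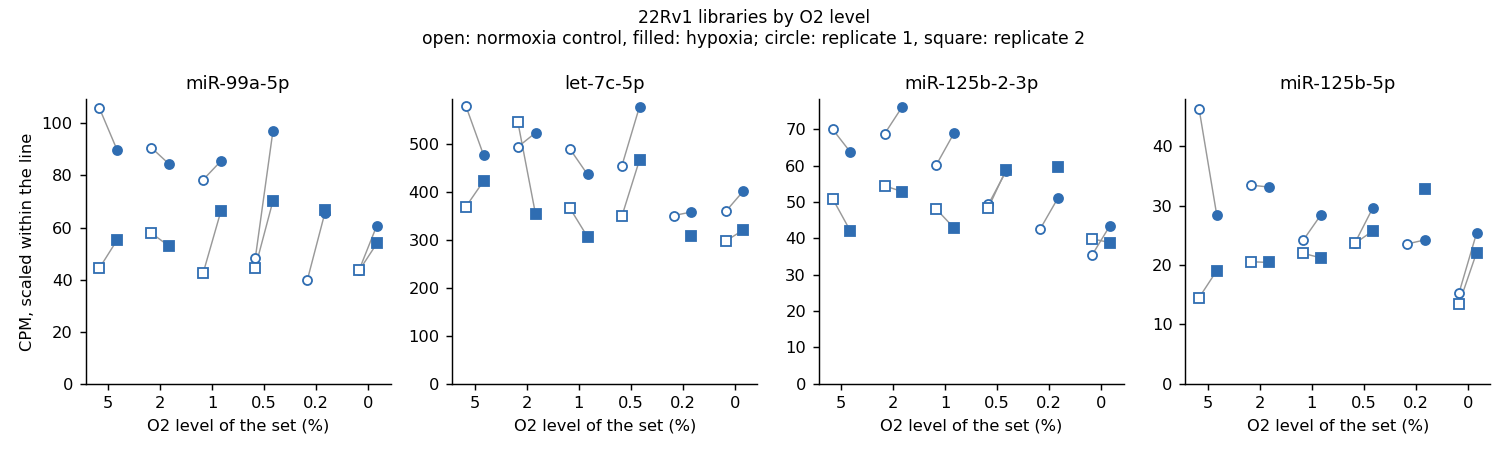
CPM (scaled within 22Rv1) of hsa-miR-99a-5p, hsa-let-7c-5p, hsa-miR-125b-2-3p and hsa-miR-125b-5p at each O2 level (percent), with normoxia and hypoxia libraries of the same number joined; 0.2% has 1 control. For hsa-miR-99a-5p the pairs at 1% O2 and below run upward to hypoxia, and replicate 1 at 5% and both pairs at 2% run downward.

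By level, the log2 difference of hsa-miR-99a-5p in 22Rv1 stood at 0.02 for 5% O2 and -0.12 for 2%, then 0.33 for 1%, 0.85 for 0.5%, 0.74 for 0.2% and 0.39 for 0%. Over the 4 members and 6 levels, 0 calls were made without the pairs (edgeR; 1 at an unadjusted p under 0.05 and 0 in DESeq2), beside 1.63% of all tests. With the pairs, 1 was made beside 6.22%, at 0.5% O2, where hsa-miR-99a-5p stood at 97.0 and 70.2 CPM in hypoxia against 48.1 and 44.6 CPM in the controls. The log2 difference there was 0.85 (SE 0.36, adjusted p = 0.201, edgeR) without the pairs and 0.83 (SE 0.18, adjusted p = 0.00219, edgeR) with them. That hypoxia replicate 1 is among the libraries that stood apart, and its stromal marker list summed to 644 CPM, of which hsa-miR-143-3p alone made 578 CPM.

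The controls moved as well as the treated libraries. Normoxia replicate 1 of hsa-miR-99a-5p stood at 106, 90.7 and 78.4 CPM in the control sets of 5, 2 and 1% O2 and at 48.1, 39.7 and 43.7 CPM in those of 0.5, 0.2 and 0%. Replicate 2 controls stood between 42.7 and 57.8 CPM in all sets. In hypoxia, replicate 1 stood at 89.8, 84.4, 85.5 and 97.0 CPM at 5, 2, 1 and 0.5% O2 and at 65.6 and 60.8 CPM at 0.2 and 0%. Hypoxia replicate 2 stood between 52.9 and 70.2 CPM. In replicate 1, then, both conditions were lower in the sets of the lowest O2 levels, the controls from the 0.5% set on and the hypoxia libraries from 0.2% on. All controls were kept in normoxia, so for them the level names only the set. A test for differences between the control sets called 0 members in each line (edgeR; 0 with an unadjusted p under 0.05), beside 0% of all miRNAs in each, and was not run in DESeq2.

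The other 22Rv1 members showed no difference past the threshold. hsa-let-7c-5p ranged from 298 to 580 CPM in normoxia (median 370) and from 307 to 579 CPM in hypoxia (median 413), a log2 difference of -0.01 (adjusted p = 0.964, edgeR). hsa-miR-125b-2-3p ranged from 35.5 to 70.1 CPM (median 49.4) and from 38.9 to 76.2 CPM (median 55.7), a difference of 0.12 (adjusted p = 0.566, edgeR). hsa-miR-125b-5p ranged from 13.4 to 46.2 CPM (median 23.5) and from 19.1 to 33.1 CPM (median 25.5), a difference of 0.19 (SE 0.16, adjusted p = 0.496, edgeR). Conditions overlapped in all 3. hsa-let-7c-3p had 26 counts in normoxia and 26 in hypoxia.

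A trend of the hypoxia effect over the 6 O2 levels was called for 0 members in PC-3, beside 0.216% of all miRNAs, and for 0 in 22Rv1, beside 0.181% (edgeR; 0 members with an unadjusted p under 0.05 in either line, and 0 in DESeq2). The step of hsa-miR-99a-5p across levels was therefore not called as a trend.

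The hypoxia effects of the lines were compared directly, as PC-3 minus 22Rv1. hsa-miR-100-3p, hsa-let-7a-2-3p and hsa-miR-125b-1-3p were too close to 0 in 22Rv1 for this difference to be estimated. Of the other 5 tested members edgeR called 0, 1 with an unadjusted p under 0.05, beside 2.94% of all 613 miRNAs, and DESeq2 called 1. The paired fit called 1, beside 9.95%. In both cases it was hsa-miR-100-5p, at -1.71 (adjusted p = 0.0141, edgeR) with the pairs and -1.85 (SE 0.70, adjusted p = 0.168, edgeR) without. This strand entered the test through PC-3 alone, being too low for a test within 22Rv1, so its call is not used. Its difference rests on the few 22Rv1 counts, 18 in normoxia and 80 in hypoxia, of which 38 fell in hypoxia replicate 1 of the 5% level, one of the libraries that stood apart. The same library held all 4 hypoxia counts of hsa-miR-100-3p in 22Rv1. Without it the unpaired difference was -1.29 (adjusted p = 0.0927, edgeR), and without the 3 libraries that stood apart -1.06 (adjusted p = 0.301, edgeR). Leaving out replicate 2 of the same 5% group instead brought the call (-2.12, adjusted p = 0.000331, edgeR). For hsa-miR-99a-5p the difference between the lines was -0.31 (SE 0.19, adjusted p = 0.506, edgeR), or -0.33 with the pairs (adjusted p = 0.0630, edgeR), so its effect was not shown to differ between PC-3 and 22Rv1.

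Hypoxia was also tested on count ratios between members, 9 in PC-3 and 3 in 22Rv1, by exact two-sided permutation within O2 levels. Of these 12, 0 had an adjusted p under 0.05, 2 had an unadjusted p under 0.05, and 0 passed with the pairs. The ratio of hsa-let-7c-5p to hsa-miR-99a-5p in 22Rv1 ranged from 546% to 946% in normoxia (median 823%) and from 462% to 768% in hypoxia (median 597%). It was lower in hypoxia at 6 of 6 levels, by a mean log2 of -0.39 (exact permutation p = 0.00622, adjusted 0.0746), and higher in only 1 of 11 pairs (adjusted p = 0.0586 by exact sign flips). Without the 3 libraries that stood apart the adjusted p was 0.034 (exact permutation), and it also fell under 0.05 without 5% control replicate 1, without 2% control replicate 1 or without 5% hypoxia replicate 2. In PC-3 the same ratio differed by -0.05 (exact permutation, adjusted p = 0.797). The ratio of hsa-let-7a-2-3p to hsa-miR-100-5p in PC-3 averaged 0.182% ± 0.0297 in normoxia and 0.153% ± 0.0280 in hypoxia, lower at 6 of 6 levels (log2 -0.25, exact permutation p = 0.0259, adjusted 0.156). It was called without replicate 2 of the PC-3 1% control set, at -0.30. The ratios between arms of MIR100 and of MIR125B1 differed by -0.08 and 0.05 (exact permutation, adjusted p of 0.557 and 0.694).

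Members of a cluster come from one host gene, and the spread of their levels over libraries was described by correlation of log2 CPM, over 16 pairs of members in PC-3 and 6 in 22Rv1. In 22Rv1 all 6 pairs were positively related, with r of 0.56 to 0.79 and Spearman's rho of 0.54 to 0.81 over 23 libraries (permutation test, adjusted p of 0.00011 to 0.0136 for r over the 22 relations and 0.00022 to 0.0294 for rho). hsa-miR-99a-5p with hsa-miR-125b-2-3p gave the highest, r = 0.79 and rho = 0.80. Leaving out the 2 libraries farthest from the median gave r of 0.43 to 0.78, and leaving out the 3 that stood apart 0.40 to 0.76. By replicate number r was 0.76 to 0.87 in the 12 replicate 1 libraries and 0.06 to 0.62 in the 11 replicate 2 libraries, so the relation was weaker in replicate 2. With CPM by library size alone, 4 of the 6 were called, with r of 0.31 to 0.67. In both lines the permutations ran over all libraries and did not keep replicate number or O2 level. A miRNA outside the clusters, hsa-miR-26b-5p, reached r = 0.78 with hsa-miR-99a-5p in 22Rv1, where the median over 319 candidates was -0.04. The share of all miRNA pairs that such a test would call was not computed.

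In PC-3, 2 of the 16 pairs were called, and the median r was 0.19. hsa-miR-100-3p and hsa-let-7a-2-3p, neighbouring passenger strands, gave r = 0.62 and rho = 0.71 over 24 libraries (permutation test, adjusted p of 0.00451 and 0.000825), and r = 0.66 without the 2 farthest. In replicate 1 their r was 0.67 and in replicate 2 it was 0.46. hsa-miR-100-5p and hsa-miR-125b-5p gave r = 0.58 and rho = 0.43 (permutation test, adjusted p of 0.00789 and 0.0984), but r = 0.32 without the 2 farthest libraries, so this relation rests on those. By replicate number it was 0.28 and 0.74. Across conditions and libraries these points share scaling and library preparation.

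Near copies were compared in the same way, as 3 relations chosen after the counts had been seen. In PC-3, hsa-miR-99a-5p and hsa-miR-100-5p gave r = 0.48 and rho = 0.37 over 24 libraries (permutation test, adjusted p of 0.0189 and 0.0736), and r = 0.26 without the 2 farthest, so the relation rests on those. hsa-let-7c-5p and hsa-let-7a-5p gave r = 0.71 and rho = 0.75 in PC-3 and r = 0.74 and rho = 0.75 in 22Rv1 (permutation test, adjusted p for r of 0.00021 and 6e-05), and 0.68 and 0.67 without the 2 farthest.

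Among all miRNAs with a mean of at least 20 CPM, those whose levels followed a member most closely were listed by r, as a description. In PC-3, over 24 libraries and 284 candidates with a median r of 0.03, hsa-miR-100-5p was followed by hsa-miR-99b-5p (r = 0.89), which shares its seed but lies on chromosome 19, hsa-miR-191-5p (r = 0.80) and hsa-miR-501-3p (r = 0.61). hsa-miR-125b-5p was followed by hsa-miR-27b-3p (r = 0.77), hsa-miR-23b-3p (r = 0.76) and hsa-miR-26a-5p (r = 0.72). The 3 closest to hsa-let-7c-5p were other let-7 guides, hsa-let-7e-5p (r = 0.72), hsa-let-7a-5p (r = 0.71) and hsa-let-7g-5p (r = 0.68). In 22Rv1, over 23 libraries and 319 candidates, hsa-miR-99a-5p was followed by hsa-miR-26b-5p (r = 0.78), hsa-miR-181b-5p (r = 0.76) and hsa-miR-26a-5p (r = 0.74). There hsa-let-7a-5p (r = 0.74) was again close to hsa-let-7c-5p, with hsa-miR-532-5p and hsa-miR-10a-5p (both r = 0.72), and hsa-miR-29a-3p (r = 0.70), hsa-miR-181b-5p (r = 0.66) and hsa-miR-141-3p (r = 0.65) were closest to hsa-miR-125b-5p. In PC-3, hsa-miR-98-5p (r = 0.65), which has the let-7 seed, hsa-miR-107 (r = 0.48) and hsa-miR-1285-3p (r = 0.47) were closest to hsa-miR-99a-5p. These points share libraries and scaling.

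The paralogous cluster on chromosome 19 (hsa-miR-99b, hsa-let-7e and hsa-miR-125a, both arms of each) served to show where the members differ from their closest relatives. All 6 of its miRNAs were higher in PC-3 than in 22Rv1 in normoxia in edgeR's test, by log2 values of 0.72 to 1.75 with a median of 1.30, against 8.03 for hsa-miR-125b-5p and -0.49 to -0.14 for the other tested MIR99AHG strands. Of all miRNAs 86.0% were called in that comparison, and hsa-miR-125a-3p was not called with scaling by library totals alone (adjusted p = 0.0686, edgeR). In hypoxia 1 of its 6 rose in PC-3, hsa-miR-125a-3p (0.52, adjusted p = 6.12e-05, edgeR), and 0 were called in 22Rv1, where 2 had an unadjusted p under 0.05 and DESeq2 called 0. Of the 10 miRNAs that are not members but have the seed of a member guide, hsa-let-7i-5p rose in PC-3 (0.16, adjusted p = 0.0262, edgeR) and hsa-let-7d-5p fell in 22Rv1 (-0.25, adjusted p = 0.0175, edgeR). Each of these calls held in only 7 of 9 alternatives. Leaving out each library in turn, hsa-let-7i-5p was called in 20 of 24 fits and hsa-let-7d-5p in 21 of 23. These 10 include hsa-miR-99b-5p, hsa-let-7e-5p and hsa-miR-125a-5p of the chromosome 19 cluster, so the lists overlap. With the pairs, edgeR called 3 of the 6 in PC-3 and 1 in 22Rv1, and 5 and 2 of the 10, beside 23.5% of all miRNAs in PC-3 and 29.7% in 22Rv1; without the pairs those shares were 11.0% and 13.6%. The PC-3 counts with the pairs share hsa-let-7e-5p and hsa-miR-125a-5p. No test of these lists against the members was made.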

How the data were processed

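Small RNA libraries were made from total RNA with a TruSeq kit and gel size selection, per the labels' protocols. The deposited table of the authors holds whole-number read counts of 1006 mature miRNAs in 47 libraries. A second deposited table of the authors holds TMM-scaled CPM. Among higher counts, its values in each library were the counts times a single factor, to within a relative difference of 5e-10. These factors were read from that table and not computed anew, and they gave an alternative scaling. FastQC and the build hg19 are named in the submitters' processing notes; the aligner and the counter, with its handling of mismatches, were not given in the sources used here. Genome positions came from RefSeq and GENCODE annotation of GRCh38.p14, by name and not from the deposited files.

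A miRNA was tested where 2 or more libraries reached 5 CPM, with edgeR 4.0.16 (R 4.3.3), TMM scaling and the quasi-likelihood test, within each line for hypoxia and over both lines for the comparison between them. A Benjamini-Hochberg adjusted p under 0.05 was called. DESeq2 1.42.0 was an alternative. Ratios used counts plus 0.5, and exact or 100000-resample permutation tests in SciPy 1.17.1 (Python 3.11.15). Scripts were tested on simulated data. Libraries with the same replicate number deviated together within each O2 level, with correlations over all tested miRNAs of 0.301 to 0.665 in PC-3 and 0.113 to 0.397 in 22Rv1, so the paired value is printed where it changes a call.

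The rule for names was all 9 members, called miRNAs of the chromosome 19 cluster and of the same-seed list, hsa-miR-210-3p, and for each guide with a mean of at least 20 CPM the 3 miRNAs of highest Pearson's r. Outside that rule, hsa-miR-143-3p was named for its part in the stromal sums and hsa-miR-99a-3p as the other strand of MIR99A. Members and lists were chosen with earlier results of these data known. The second 22Rv1 normoxia control of the 0.2% level was not analysed here. Alternatives were other scalings, no filter, DESeq2, pairing, leaving out each library, and leaving out the libraries that stood apart, of which the last for 22Rv1, and the relations of near copies, were added after the data had been seen.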

Additional observations from a re-analysis of the deposited data

How the results depend on the processing

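Over the alternatives, the tested members' differences kept their direction and their side of the threshold in 251 of 264 values in PC-3 hypoxia, 114 of 128 in 22Rv1 hypoxia, 260 of 280 between the lines' hypoxia effects (without hsa-miR-100-3p, hsa-let-7a-2-3p and hsa-miR-125b-1-3p, for which that difference could not be estimated), 438 of 440 between the lines in normoxia, and 297 of 321 for the count ratios. The normoxia values include the strands made only from MIR100HG, which entered that test through PC-3 alone, so their sameness adds no support. Both normoxia values that changed belong to hsa-miR-99a-5p. With the pairs, and with the replicate number alone as a block, 1 member was called for the mean effect in 22Rv1 (hsa-miR-99a-5p) and 1 at single O2 levels in each line, against 0 without. For the difference between the lines, 1 was called with the pairs and 1 in DESeq2, in both cases hsa-miR-100-5p, whose call is not used. The pairs changed no other call of a member. Leaving out each replicate gave 0 to 1 members called in 22Rv1, 0 to 1 for the difference and 0 to 2 count ratios, and leaving out the 3 22Rv1 libraries that stood apart gave 1 count ratio. With CPM by library size alone, 5 relations between members were called, against 8.

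The reversed values among these were not called. The log2 effect of hsa-let-7c-5p in PC-3 was -0.029 with scaling by library size, -0.010 with the authors' factors, -0.015 without both PC-3 5% replicate 1 libraries, and -0.030 to 0.049 leaving out each replicate. In 22Rv1 it was 0.0058 with the pairs, 0.012 with the number as a block, 0.0023 without the 3 libraries that stood apart, and -0.072 to 0.040 leaving out each replicate. The difference of the lines for the same miRNA was -0.014 with the pairs, -0.024 with the number as a block, -0.00890 without both PC-3 5% replicate 1 libraries, and -0.070 to 0.10 leaving out each replicate. Leaving out each replicate gave -0.098 to 0.033 for hsa-miR-100-3p in PC-3 and -0.031 to 0.18 for the difference of hsa-miR-125b-2-3p. Of the ratios, hsa-miR-99a-5p to hsa-miR-100-5p in PC-3 was -0.038 without both PC-3 5% replicate 1 libraries and -0.069 to 0.070 leaving out each replicate. Leaving out each replicate also gave -0.054 to 0.022 for hsa-miR-125b-5p to hsa-miR-100-5p and -0.095 to 0.0012 for hsa-let-7c-5p to hsa-miR-99a-5p in PC-3, and -0.18 to 0.017 for hsa-miR-125b-2-3p to hsa-miR-125b-5p in 22Rv1. The causes were not tested. Depth limits the MIR100HG strands in 22Rv1 and hsa-let-7c-3p in both lines, which were too low to test for hypoxia there. The lines in normoxia share no pairs. A block for the replicate number gave 7 called members, as did the fit without one, where 86.0% of all 613 miRNAs were called. These 7 include the strands made only from MIR100HG, which entered that test through PC-3 alone, so their calls are not used.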
